A study of Mus musculus with 4 samples.

Results

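Monocarboxylate carriers of the Slc16 family were followed in chemically transformed mouse fibroblasts with and without phorone. The 6 carriers were Slc16a1, Slc16a3, Slc16a6, Slc16a7, Slc16a10 and Slc16a13, and every array probe that the array design named after one of them was taken. That gave 11 probes among 40628 gene probes, namely 3 for Slc16a1, 3 for Slc16a10, 2 for Slc16a6 and 1 each for Slc16a3, Slc16a7 and Slc16a13. Of these, 6 probes of 3 genes (Slc16a1, Slc16a3 and Slc16a6) were bright enough to be tested, and 5 probes were not.

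Phorone cells (n = 2 arrays) were transformed C3H10T1/2 cells exposed to 2 mM phorone, an unsaturated ketone that binds glutathione and depletes it. Control cells (n = 2 arrays) were transformed C3H10T1/2 cells without phorone. C3H10T1/2 is a mouse embryo fibroblast line, and both groups had first been transformed with 3-methylcholanthrene (2.5 µg/ml for 2 days) and then the phorbol ester TPA (100 ng/ml), followed by 4 weeks in normal medium. Total RNA was measured on 1-colour Agilent arrays, 1 array per sample. Whether replicate samples were grown as separate cultures is not stated in the labels. The p-values therefore reflect the scatter of these particular samples, and that scatter may be technical.

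Slc16 proteins carry small acids and related molecules across membranes. Slc16a1 (the carrier MCT1) and Slc16a3 (MCT4) move lactate, pyruvate and ketone bodies together with a proton, and Slc16a3 is known for lactate export from glycolytic cells. Slc16a7 (MCT2) has a high affinity for pyruvate and lactate. Slc16a10 (TAT1) carries aromatic amino acids and thyroid hormone without a proton. Slc16a6 (MCT7) exports the ketone body beta-hydroxybutyrate from the liver in zebrafish, and Slc16a13 (MCT13) is among the less studied members. Lactate carriers reach the plasma membrane with the help of the chaperones basigin (Bsg) and embigin (Emb).

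The probes were 60 bases long, and the first 30 bases of the 6 tested probes are printed here, 5′ to 3′ in the deposited orientation and in lower case throughout, because separate probes of a gene are read below as separate measurements.
Slc16a6 probe GT_Mm_44k_51_P432180: ctactatattataaagtgacatccagccca
Slc16a6 probe GT_Mm_44k_52_P579933: ttgtactacgaatgttcgagacgatttaat
Slc16a1 probe GT_Mm_44k_51_P397367: atgggttcagtgtaaggataagaggaaaga
Slc16a1 probe GT_Mm_44k_51_P397363: gaggaagtttgctgagaacttgtatcatgc
Slc16a1 probe GT_Mm_44k_52_P245119: gtctggaaatgtggtcatgttttttggact
Slc16a3 probe GT_Mm_44k_51_P144090: ctgggcagtggtctgttcaccctgagtccc
The longest run of bases that any 2 of the 11 full probes shared was 8, so no probe repeated another. Their GC content lay between 35.0% and 48.3%, against a median of 41.7% over all gene probes. Both Slc16a6 probes held a stop codon in each of the 3 forward frames, as did 5 of the 11 probes and 18.1% of all gene probes. Such a probe cannot lie wholly within a coding sequence in the printed orientation.

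All 4 arrays shared 1 slide. Phorone arrays occupied 1 of its rows and control arrays the other, and the 2 effects, of position and of phorone, cannot be told apart. The share of spots well above background ran from 51.1% to 52.7% per array, and no spot was saturated. Phorone arrays had 75th-percentile signals of 563 and 572, and control arrays of 701 and 747. Log2 values below are relative to that percentile of the same array. All 10 fibroblast markers examined were tested, and 6 were lower and 0 higher with phorone (0 at an unadjusted p under 0.05, limma), against 21.0% lower and 23.8% higher among the 17033 genes with a tested probe. Summed over the 10 markers, the level was 9.03 and 9.12 on the phorone arrays and 9.95 and 10.02 on the control arrays (log2). The brightest markers weigh most in this sum, and the median log2 fold change of the 10 was -1.31. Of the 6 lower, Dcn, Col3a1 and Pdgfra differed by -4.52, -3.38 and -2.98, and Lum was above background on both control arrays alone. Lum was thus bright enough to be tested through the control arrays alone, which favours a lower call. Vim, which codes for vimentin, stood at 6.93 and 7.09 with phorone and at 7.41 and 7.33 in control (not called). Col1a1 is counted as uncalled, but 2 further probes of this gene were called lower (-2.21 and -1.44). Further probes of the markers Thy1 and Fn1 were not called. Of 26 markers of 6 other cell types, 11 were tested, with 1 higher (Cd68, a lysosomal protein of macrophages) and 4 lower. Ptprc and Adgre1 (leukocytes and macrophages), Pecam1 and Cdh5 (endothelium) and Cdh1 (epithelium) were not well above background on any array. Other markers on the same lists were detected. Cd14 (monocytes) stood at 2.13 and 2.08 with phorone and at 1.84 and 2.13 in control, and the keratins Krt8 and Krt14 were above background on all 4 arrays. Csf1r (macrophages) was above background on both phorone arrays and 1 control array, and Tek (endothelium) on both control arrays alone. Tek was called lower and carries the same limit as Lum. The part of these marker shifts in the carrier results was not tested.

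The comparison asked how much RNA of each carrier the cells held with phorone, relative to cells without it. Slc16a6 was about 16.8-fold higher with phorone, Slc16a1 was 1.50-fold higher on its brightest probe, and Slc16a3 was not called. Of the 6 tested probes, 4 were higher and 0 lower with phorone (limma, adjusted p under 0.05), against 45.8% called, 25.5% higher and 20.3% lower among all 24207 gene probes tested. No member probe was lower at an unadjusted p under 0.05 either (0 lower, 5 higher). The 4 higher probes belong to 2 genes, so they are not 4 independent observations. Of these 4, 2 (P579933 of Slc16a6 and P245119 of Slc16a1) passed the brightness filter through the phorone arrays alone, which favours a higher call. Their p-values carry that limit. With only probes well above background on all 4 arrays, 3 of 4 member probes were higher. The median log2 fold change was 0.84 over the 6 tested member probes and 0.11 over all tested probes. The 2 probes that passed the filter through the phorone arrays alone count in the first of these medians. The values of the groups did not overlap on any of the 6 tested member probes, nor on 77.9% of all tested probes.

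**Figure D1:**
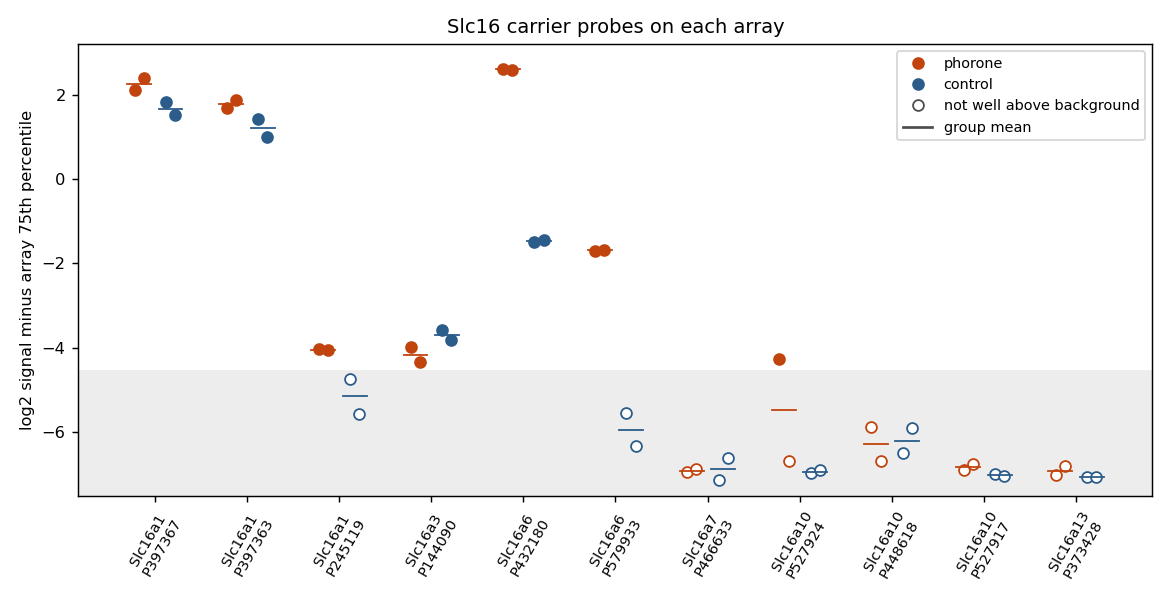
Log2 signal minus the array's 75th percentile (vertical axis) for each of the 11 carrier probes (horizontal axis), with the 2 phorone arrays left of the 2 control arrays. Filled points are well above background, open points are not, short lines are group means and the grey band lies below -4.55, the highest of the 4 arrays' lowest values among probes well above background. Both Slc16a6 probes stand far higher on the phorone arrays, and Slc16a7 and Slc16a13 stay in the band on every array.

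Slc16a6, the zebrafish ketone body exporter's mouse counterpart, rose on both of its probes. On probe P432180 the processed signal was 3458 and 3437 on the phorone arrays, against 249 and 276 on the control arrays. As log2 values relative to the 75th percentile these were 2.62 and 2.59 with phorone and -1.49 and -1.44 in control, averaging 2.60 ± 0.02 with phorone and -1.46 ± 0.04 in control (SD, n = 2 each). The 2 phorone arrays agreed closely with each other, as did the 2 control arrays, and the groups lay far apart. The log2 fold change was 4.07 (SE 0.12, 95% interval 3.75 to 4.38, limma adjusted p = 0.000234), which is 16.8-fold.

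The second Slc16a6 probe, P579933, gave signals of 174 and 180 on the phorone arrays, against 15.0 and 9.26 on the control arrays. It was well above background on both phorone arrays and on neither control array, so only a bound can be given for its change. Slc16a6 was at least 8.73-fold higher on this probe (limma adjusted p = 0.000749), from means of -1.68 ± 0.02 with phorone and -5.94 ± 0.56 in control on the log2 scale (SD, n = 2 each). Ranked by log2 fold change among the 24207 tested probes, P432180 stood at position 68. Slc16a6 was called higher on both probes in each alternative analysis that held them, with log2 fold changes of 3.70 to 4.50 on P432180. On P579933 the fitted value was 1.88 with normexp background correction and 3.86 to 4.69 in the other alternatives. That correction adds an offset of 50 to every spot, which shrinks fold changes most on dim probes.

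Among 11098 named genes detected on all 4 arrays, those whose 4 values lay nearest to Slc16a6 (P432180) after removal of each probe's own mean were Srxn1, Uchl1 and Dppa5a. Their root mean square differences from Slc16a6 over the 4 arrays were 0.06, 0.14 and 0.25 on the log2 scale. Srxn1, the sulfiredoxin that repairs oxidised peroxiredoxins, stood at 7.45 and 7.58 with phorone and at 3.34 and 3.42 in control. Uchl1, a ubiquitin hydrolase best known from neurons, had 0.72 and 0.91 with phorone and -3.00 and -3.14 in control. Dppa5a, a gene of pluripotent and germ cells, had 0.92 and 1.24 with phorone and -2.54 and -2.57 in control. With 4 arrays in 2 groups, this likeness says little more than that the changes were of nearly the same size.

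Slc16a6 lies on chromosome 11, where the RefSeq table of GRCm38.p6 shows Arsg, a lysosomal sulfatase gene, overlapping it and Amz2 and Wipi1 as the next protein-coding genes. These neighbours were looked up after the Slc16a6 values had been seen. Arsg differed by -0.36 on the log2 scale (SE 0.23, limma adjusted p = 0.250) and Wipi1, an autophagy gene, of 0.19 (SE 0.12, adjusted p = 0.253), neither called. Amz2, a metallopeptidase gene, was higher by 0.79 (SE 0.14, limma adjusted p = 0.0103). The difference between Slc16a6 and its neighbours was not tested.

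Slc16a1, the widespread lactate and pyruvate carrier, was modestly higher with phorone, at the edge of the test. On its brightest probe, P397367, log2 values were 2.10 and 2.39 on the phorone arrays and 1.82 and 1.51 on the control arrays. The groups did not overlap on this scale, with means of 2.24 ± 0.20 with phorone and 1.66 ± 0.22 in control (SD, n = 2 each) and a log2 fold change of 0.58 (SE 0.18, 95% interval 0.12 to 1.04, limma adjusted p = 0.0485). Before scaling, the signals were 2416 and 2993 with phorone and 2468 and 2126 in control, and there the groups overlapped.

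The next probe of Slc16a1, P397363, had nearly the same change. Its log2 values were 1.68 and 1.88 with phorone and 1.43 and 0.99 in control, a difference of 0.57 (SE 0.19, 95% interval 0.07 to 1.07) that was not called (limma adjusted p = 0.0645). The dim probe P245119 had signals of 34.3 and 34.6 with phorone and 26.4 and 15.9 in control, and was well above background on the phorone arrays only. On that probe Slc16a1 was at least 1.65-fold higher (limma adjusted p = 0.0301), from log2 means of -4.04 ± 0.01 with phorone and -5.14 ± 0.58 in control (SD, n = 2 each). Lrig2, the next protein-coding gene on 1 side of Slc16a1, was higher by 0.73 on the log2 scale (SE 0.16, limma adjusted p = 0.0194). The difference between Slc16a1 and Lrig2 was not tested.

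The call on the brightest Slc16a1 probe depended on arrays, scaling, the filter, the probes included and the replicate block. P397367 was called in 5 of 14 alternative analyses and not in the other 9, with log2 fold changes of 0.43 to 1.02 throughout. It was no longer called without control replicate 2 (0.43, adjusted p = 0.139), phorone replicate 1 (0.73, adjusted p = 0.0564) or phorone replicate 2 (0.44, adjusted p = 0.223). With control replicate 1 left out it stayed called (0.74, adjusted p = 0.0426), and P397363 then was called too (0.79, adjusted p = 0.0268). The dim probe P245119 stayed called with spike-in scaling (limma adjusted p = 0.00579) and the replicate block (limma adjusted p = 0.0194). It lost its call with no filter on dim probes (limma adjusted p = 0.0938). The direction was the same on all 3 probes in every alternative run.

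Slc16a3, the lactate exporter of glycolytic cells, was dim and was not called. Signals of its single probe, P144090, were 35.8 and 28.2 on the phorone arrays, against 58.4 and 52.7 on the control arrays, each with an error of 5.48 to 7.72 by the scanner software's error model. The log2 values were -3.98 and -4.34 with phorone and -3.59 and -3.82 in control, averaging -4.16 ± 0.26 with phorone and -3.71 ± 0.17 in control (SD, n = 2 each). The groups did not overlap, but the log2 difference of -0.46 (SE 0.18, 95% interval -0.92 to 0.01) had a limma adjusted p of 0.0964. With spike-in scaling the difference was -0.02, and with normexp background correction it was 0.0013, so no direction can be given for Slc16a3. Csnk1d, a kinase gene that overlaps Slc16a3 in the RefSeq table, differed by 0.36 on the log2 scale (SE 0.13, limma adjusted p = 0.0737) and was not called. Ccdc57, next to Slc16a3 on 1 side, was not called either (0.20, limma adjusted p = 0.264).

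**Figure D2:**
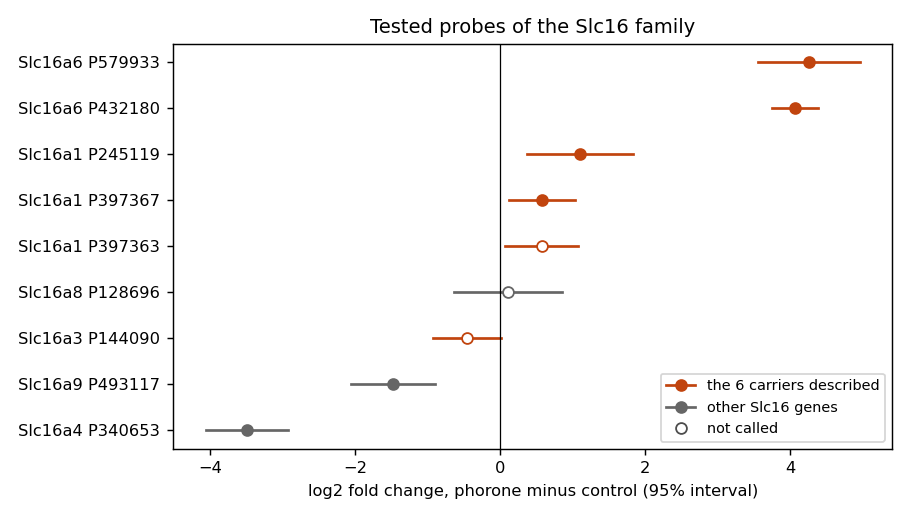
Log2 fold change, phorone minus control (horizontal axis), with its 95% interval for each tested probe of the Slc16 family (vertical axis), the 6 carriers described in orange and other family genes in grey. Open points were not called. The Slc16a6 probes stand at 4.07 and 4.26, of which the second is a fitted value for a probe below background in control, and Slc16a4 and Slc16a9 lie on the negative side.

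**Figure D3:**
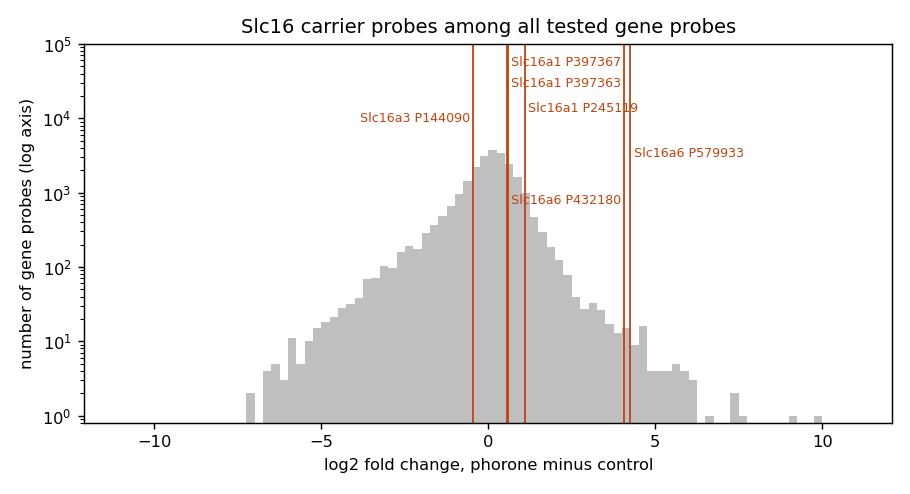
Number of tested gene probes (vertical log axis) by log2 fold change, phorone minus control (horizontal axis), with the 6 tested carrier probes as lines. The Slc16a6 lines lie in the upper tail, P432180 at rank 68 of 24207 and P579933 at a fitted value that has no exact rank because control was below background, while those of Slc16a1 and Slc16a3 lie within the bulk.

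The other 3 carriers had no tested probe. Slc16a7, the high-affinity carrier, gave signals of 4.56 and 4.90 on the phorone arrays and 4.98 and 7.66 on the control arrays, none well above background. Slc16a13 gave 4.34 and 5.12 with phorone and 5.24 and 5.56 in control, again below background on every array. At this brightness a fall, or a change that stayed below background, could not be seen in either gene.

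Slc16a10, the aromatic amino acid carrier, was read by 3 probes, and 1 of them was well above background on 1 array. That probe, P527924, had signals of 29.2 and 5.56 on the phorone arrays, against 5.59 and 6.25 on the control arrays. Its high value therefore came from phorone replicate 1 alone and was not repeated in phorone replicate 2. On P448618 the signals were 9.63 and 5.57 with phorone and 7.79 and 12.5 in control, and on P527917 they were 4.74 and 5.31 with phorone and 5.48 and 5.72 in control. Neither of these probes was well above background on any array. Rpf2, next to Slc16a10 on 1 side, was higher by 0.91 on the log2 scale (SE 0.14, limma adjusted p = 0.00615). Lrig3, next to Slc16a7 on 1 side, was not called (-0.02, limma adjusted p = 0.946).

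RefSeq promoters (GRCm38.p6) were at hand for 3 of the 6 carriers: Slc16a1, Slc16a3 and Slc16a10. The 250 bases before the start are printed for the lactate carriers, Slc16a1 and Slc16a3, because both genes had a tested probe. Capitals mark matches on either strand to ACGTG, the core bound by hypoxia-inducible factors, and to TGACNNNGC, a core of the antioxidant response element bound by NRF2.
Slc16a1 promoter, chr3:104638414-104638663, plus strand: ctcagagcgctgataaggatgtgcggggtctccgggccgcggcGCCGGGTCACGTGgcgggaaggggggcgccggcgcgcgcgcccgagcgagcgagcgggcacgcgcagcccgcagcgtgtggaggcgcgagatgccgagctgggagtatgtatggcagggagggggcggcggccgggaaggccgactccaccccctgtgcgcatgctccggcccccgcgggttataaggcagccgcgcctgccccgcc
Slc16a3 promoter, chr11:120948817-120949066, plus strand: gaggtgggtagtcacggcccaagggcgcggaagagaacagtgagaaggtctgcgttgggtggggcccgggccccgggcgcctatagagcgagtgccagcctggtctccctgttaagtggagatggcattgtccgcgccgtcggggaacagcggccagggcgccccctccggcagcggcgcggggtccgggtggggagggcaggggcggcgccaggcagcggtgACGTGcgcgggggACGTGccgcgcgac
In Slc16a1 the capitals form a single block, in which CACGTG (the E-box bound by MYC among others, read as ACGTG on both strands) overlaps 1 match to TGACNNNGC on the other strand. In Slc16a3 there are 2 separate ACGTG matches close to the start and none to TGACNNNGC. The Slc16a10 window holds none of these letters. Over 32851 promoter windows of this length, 16.6% held ACGTG, 6.02% CACGTG and 10.2% TGACNNNGC. These matches are a description of the letters and say nothing about binding.

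Among other genes of the Slc16 family only 2 were called, both lower. Of 7 further family genes examined, 3 were tested, and 2 of these were lower and 0 higher with phorone (0 at an unadjusted p under 0.05, limma), against 44.9% called, 21.0% lower and 23.8% higher over 17033 genes represented by 1 probe each. The median of the 3 was -1.48. Slc16a4, an orphan carrier, stood at -5.11 and -5.70 with phorone, not well above background, and at -1.90 and -1.92 in control, at least 6.80-fold lower (limma adjusted p = 0.000714). Slc16a4 passed the brightness filter through the control arrays alone, which favours a lower call. Slc16a9 (MCT9), a carnitine carrier, was lower by -1.48 on the log2 scale (SE 0.22, limma adjusted p = 0.00636). Slc16a8, known from the retinal pigment epithelium, was not called (0.11, limma adjusted p = 0.785), and Slc16a5, Slc16a11, Slc16a12 and Slc16a14 were too dim to test. Under spike-in scaling Slc16a9 was not called (-1.04, adjusted p = 0.0743).

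The chaperones of the lactate carriers were lower or not called. Emb (embigin) stood at 0.66 and 0.52 with phorone and at 2.18 and 2.16 in control, a log2 difference of -1.58 (SE 0.13, limma adjusted p = 0.00127), and its other tested probe was lower by -0.75. Bsg (basigin), the partner of Slc16a1 and Slc16a3, had 3.92 and 3.76 with phorone and 4.40 and 4.50 in control, lower by -0.61 on the log2 scale (SE 0.13, limma adjusted p = 0.0185). The groups did not overlap for either gene, nor on 77.9% of all tested probes. The third chaperone, Nptn, was not called (-0.40, limma adjusted p = 0.0816), though its other probe was (-0.76). So 2 of 3 were lower and 0 higher (0 at an unadjusted p under 0.05, limma), against 21.0% lower over all genes. Bsg lost its call without control replicate 2 (-0.56, adjusted p = 0.0530), phorone replicate 1 (-0.69, adjusted p = 0.0530) or phorone replicate 2 (-0.53, adjusted p = 0.125), and stood at -0.17 under spike-in scaling.

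Enzymes that make and use lactate and pyruvate went both ways, with 5 of 16 tested genes higher and 4 lower (median 0.24), against 23.8% and 21.0% over all genes. With spike-in scaling 2 were higher and 1 lower, Mpc1, Dlat and Pcx losing their higher calls and Pdk1, Pdk2 and Pdp1 their lower ones. Ldhb, the lactate dehydrogenase subunit of oxidative tissues, was lower (2.44 and 2.36 with phorone, 4.03 and 4.15 in control), by -1.69 on the log2 scale (SE 0.13, limma adjusted p = 0.00111). Ldha, the subunit typical of glycolytic cells, overlapped between groups, at 6.99 and 6.67 with phorone and 6.90 and 6.62 in control (0.07, limma adjusted p = 0.772). Pdha1 and Pdhx, parts of pyruvate dehydrogenase, were higher by 1.06 and 0.91, although other probes of theirs stood at -0.40, called lower, and -0.19, not called. Pcx, which carboxylates pyruvate, was higher by 0.47, and the kinase Pdk1 and the phosphatase Pdp1, which switch pyruvate dehydrogenase off and on, were lower by -1.39 and -0.84. Without control replicate 2, phorone replicate 1 and phorone replicate 2 the higher members numbered 3, 2 and 2, and without control replicate 1 the lower ones numbered 2. Pcx lost its call without control replicate 1 or either phorone array, and Pdk1 without control replicate 1.

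Of 14 tested genes for glucose uptake and glycolysis, 2 were higher and 2 lower (median 0.13), against 44.9% called over all genes. Slc2a1, the main glucose carrier of fibroblasts, had 5.12 and 5.19 with phorone and 4.21 and 3.62 in control, a log2 difference of 1.24 (SE 0.22, limma adjusted p = 0.0101). Pkm (pyruvate kinase) was higher by 0.58, and Pfkl and Pfkm, subunits of phosphofructokinase, were lower by -0.78 and -0.74. Without control replicate 1 or either phorone array only 1 gene was higher, Pkm having lost its call, and 0 were lower with spike-in scaling or once phorone replicate 2 was left out.

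Ketone body genes were lower where called, 3 of 4 tested with 0 higher (0 at an unadjusted p under 0.05, limma; median -0.92), against 21.0% lower over all genes. Bdh2, a hydroxybutyrate dehydrogenase of the cytosol, had 1.95 and 1.70 with phorone and 3.77 and 3.65 in control (-1.88, SE 0.15, limma adjusted p = 0.00120). Acat1, the mitochondrial thiolase, was lower by -1.28, and Oxct1, which activates acetoacetate for use, by -0.57. Oxct1 lost its call without control replicate 1 or either phorone array. With spike-in scaling 1 gene of the list was called lower.

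Among genes for aromatic amino acids and thyroid hormone, the substrates of Slc16a10, 2 of 5 tested were lower and 0 higher (1 at an unadjusted p under 0.05, limma; median -0.36), against 21.0% lower over all genes. Crym, which binds thyroid hormone in the cytosol, was not well above background with phorone (-7.10 and -6.87) and stood at -1.84 and -1.87 in control, at least 7.04-fold lower (limma adjusted p = 0.000227). Crym passed the brightness filter through the control arrays alone, which favours a lower call. Thra, a thyroid hormone receptor, was lower by -1.48 (SE 0.14, limma adjusted p = 0.00183), but was not called with spike-in scaling (-1.05, adjusted p = 0.0728), where 1 gene was lower and 2 were higher. Slc3a2, the heavy chain of the large amino acid carrier, had 5.90 and 6.16 with phorone and 4.82 and -3.77 in control, far dimmer on control replicate 2 (not called, limma adjusted p = 0.151), and its other probe was higher by 1.22. Without control replicate 1, control replicate 2 or phorone replicate 2, 1 gene was called higher.

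Of 6 tested genes for acid and bicarbonate, which set the proton gradient that lactate carriers use, 1 was lower and 0 higher (0 at an unadjusted p under 0.05, limma; median -0.30), against 21.0% lower over all genes. This was Car2, carbonic anhydrase II, at least 2.39-fold lower (limma adjusted p = 0.00335). It passed the brightness filter through the control arrays alone, which favours a lower call. Slc4a7 was not called on its brightest probe, whose phorone arrays lay apart, at 1.82 and 3.76, on either side of both control values. The direction on that probe therefore depended on which phorone array was kept. Its 2 other tested probes were both called lower (-1.601 and -0.505). The counts for this list were not the same in every analysis with 1 array left out, and with normexp background correction 2 genes were lower. The 6 genes for sodium-coupled carriers and for receptors of lactate, hydroxybutyrate and short fatty acids (Slc5a8, Slc5a12, Hcar1, Hcar2, Ffar2 and Ffar3) were not well above background on any array.

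Of 9 tested transcription factors linked to these carriers, 3 were higher and 2 lower (median -0.28), against 23.8% and 21.0% over all genes. Myc, which drives growth and Slc16a1 in tumour cells, was higher by 0.95 (SE 0.23, limma adjusted p = 0.0243) and on its other probes by 0.99 and 1.44. Arnt, the partner of hypoxia-inducible factors, was higher by 0.71 and Ppard, a fatty acid receptor, by 0.83. Ppard was dim, above background on both phorone arrays and 1 control array. It met the brightness filter through the phorone group alone, which favours a higher call. Epas1, a hypoxia-inducible factor, had 0.96 and 0.91 with phorone and 3.57 and 3.29 in control (-2.50, SE 0.15, limma adjusted p = 0.000649), and Ppargc1a, a coactivator of mitochondrial genes, was lower by -2.19. Its phorone arrays lay apart, at -3.96 and -2.23, against -0.76 and -1.05 in control. The Ppargc1a difference was -1.33 without phorone replicate 1 and -3.06 without phorone replicate 2, and its other probe stood at -3.60. Hif1a (-0.46, limma adjusted p = 0.0546) and Nfe2l2, which encodes NRF2 (0.29, limma adjusted p = 0.214), were not called. Calls were lost for Ppargc1a without either control array, for Ppard without control replicate 2 or phorone replicate 1, and for Arnt without phorone replicate 2.

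**Figure D4:**
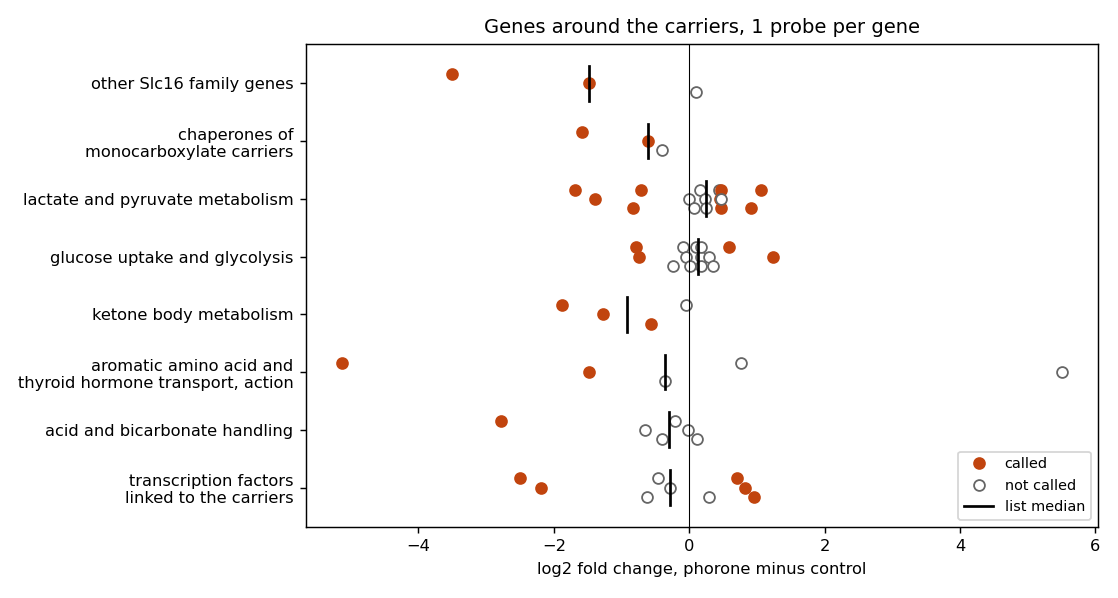
Log2 fold change, phorone minus control (horizontal axis), for the tested genes of each list (vertical axis), 1 probe per gene, with filled points called, open points not called and a black line at the list median. The medians run from -1.48 for other Slc16 genes to 0.24 for lactate and pyruvate metabolism, and the open point beyond 5 is Slc3a2, far dimmer on control replicate 2 than on the other arrays.

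**Figure D5:**
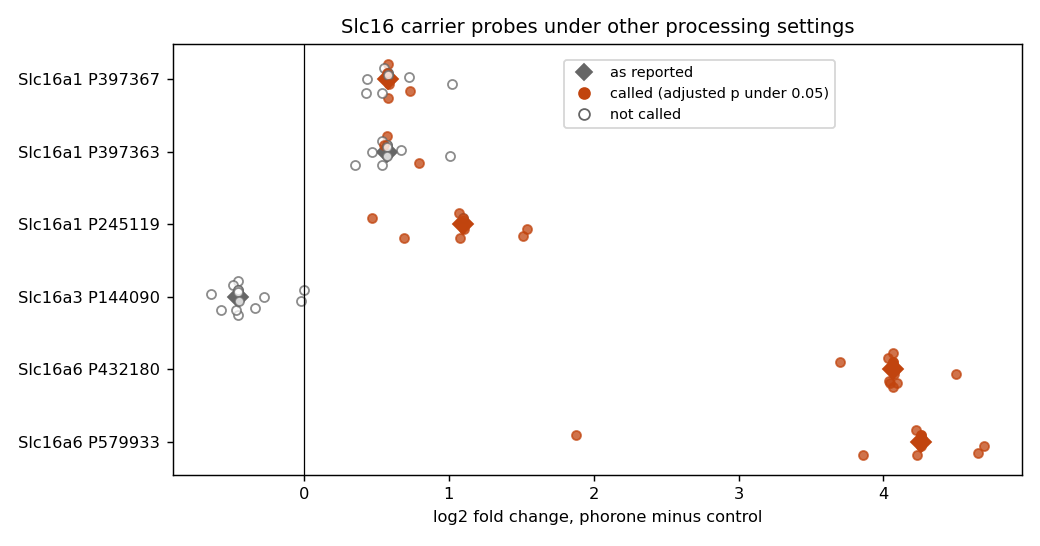
Log2 fold change, phorone minus control (horizontal axis), of the 6 tested carrier probes (vertical axis) as reported (diamonds) and in each alternative analysis (circles, orange where called and open where not). Slc16a6 P432180 stays between 3.70 and 4.50, whereas calls on Slc16a1 P397367 come and go around 0.58 and Slc16a3 reaches 0.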

How the data were processed

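The authors deposited scanner intensity per spot, read by Agilent software (Feature Extraction, version 10.7.3.1, per the file headers) from a custom mouse array with Cy3 as the dye. The processed signal is background-subtracted and detrended, has surrogate values for dim spots and is not scaled between arrays. The authors' deposited table of log2 values followed log2 processed signal minus 1 number per array (SD at most 0.0223), near the 75th percentile, with column medians of -4.37 and -4.30 for phorone and -4.39 and -4.35 for control. From the processed signal, log2 values minus each array's 75th percentile over probes outside the controls were computed, spots of a probe were averaged and outlier spots dropped (111 probes lost). A gene probe was kept if both phorone arrays or both control arrays showed it well above background, and kept probes were tested with limma 3.58.1 in R 4.3.3 (24207 probes, 2 residual and 3.08 prior degrees of freedom, two-sided, Benjamini-Hochberg over all probes, threshold 0.05), after a test on simulated data. A gene outside the 6 carriers is represented by its brightest tested probe. Accessions named 28086 gene probes (69.3%) in the RefSeq table. A probe below background on both arrays of a group gets a bound: the bright group's mean against, per array, the higher of its own value and the lowest value well above background. Named genes are every member probe, up to 3 called genes each way per list, Bsg, Emb, Ldha, Ldhb and Slc2a1, and the 3 genes nearest in pattern; further names were chosen after their values were seen. Some listed genes are not reported here. Members and lists were chosen with earlier results of these data known. Alternatives were other scalings, background correction, filters, features, left-out arrays and a replicate block; the number of arrays limits precision.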

Additional observations from a re-analysis of the deposited data

How the results depend on the processing

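Of the 6 member probes, 4 were higher and 0 lower. With only probes well above background on all 4 arrays, 3 of 4 were higher. In the alternatives, 2 of 3 were higher with 1 probe per gene and 2 of 11 with no filter on dim probes, the no-filter calls being both Slc16a6 probes, and 3 to 5 with 1 array left out. Lower members numbered 0 in all 14 alternatives. The Slc16a3 difference of -0.46 turned to 0.0013 with normexp, and that of Ldha, 0.07 as reported, was -0.011 under quantile normalisation and lay between -0.087 and 0.225 with 1 array left out, below 0 without control replicate 2 (-0.072) and without phorone replicate 1, none of them called; the cause was not tested. Over all gene probes, 11087 were called, 55.6% of them higher. Spike-in scaling, on 7 control probes, raised the median of all tested probes by 0.44, and called 6063 probes, 73.5% of them higher. Leaving out 1 array gave 7100 to 10570 calls, the fewest without phorone replicate 2. The labels' shared replicate numbers also marked the slide column, but same-numbered samples did not deviate together (r = -0.0408 across probes), so they are not taken as pairs. With the replicate block, 3 member probes were higher and 0 lower and 9754 probes were called, and P397367 of Slc16a1 was not called (adjusted p = 0.0771). Among other listed genes, single results were unchanged in direction and call in 332 instances, lost their call in 67 and turned sign in 3. Signal over background limits Slc16a7, Slc16a10 and Slc16a13.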
